A study of Mus musculus with 12 samples.

Results

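The potassium channel genes were taken as the protein-coding genes of GENCODE vM39 whose symbols start with Kcn, and 94 of 21757 protein-coding genes on chromosomes 1 to 19, X and Y met that rule. Each gene was read at its promoter, 2 kb on each side of the canonical transcription start site (TSS) on the mm39 genome. A promoter is called listed in a library where a peak of that library's deposited list overlaps it by 1 base or more. The 94 genes comprised 30 pore-forming subunits of voltage-gated (Kv) channels, 10 Kv modifier subunits, 15 inward rectifiers (Kir), 14 leak channels of the K2P family, 8 calcium-activated, sodium-activated and related large-conductance channels, and 17 accessory subunits. Peak lists hold no RNA measurement, so whether these genes were transcribed in the cells was not analysed here, nor were the RNA markers of the labelled cell type.

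Potassium channels let potassium leave the cell and so set the resting membrane potential, end action potentials and steer cell volume and calcium entry. Kv channels open on depolarization, Kir channels pass current best near rest, K2P channels leak at all voltages, and the calcium-activated channels couple internal calcium to the membrane. Ubiquitin on a lysine in the tail of histone H2A (H2AK119ub) is placed by Polycomb repressive complex 1, which is known for marking CpG-rich promoters of genes of other lineages, and it is removed by the deubiquitinase BAP1 together with ASXL1. In blood, Kcna3 (Kv1.3) and Kcnn4 (KCa3.1) are the best known members, for their part in calcium signalling of lymphocytes, and Kcnn4 also in red cell volume.

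The cells were c-Kit+ hematopoietic stem and progenitor cells from mouse bone marrow with the genotype given as mock. Every group, vector controls included, also received a retrovirus for BAP1, so all values come from cells overexpressing BAP1. In the set built on ASXL1 residues 1 to 590, H2AK119ub CUT&RUN libraries were made with 25RA (a mutant described in the labels as condensation-defective), 10RA (condensation-impaired), the unmutated 1-590 form and an empty vector. The set built on ASXL1 residues 1 to 1067 had the charge-neutralized mutants 36EQ and 34DN, the unmutated 1-1067 form and its own empty vector. ChIP-seq was done for BAP1 (with HA-BAP1) and for ASXL1 (with HA-ASXL1), each with 10RA and 1-590. The labels' descriptions name antibodies to BAP1 and ASXL1 whereas their protocol names an antibody to the HA tag. In 3 lists (25RA, 34DN, 36EQ) the names of single peaks use codes that the titles do not, and these libraries were identified by title. There was 1 library per group, hence no replicate error and no test: all differences given are between libraries.

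Depth differed. The background, read from the lowest local background among the peaks of a list, was 1.86, 1.72 and 2.06 fragments per base in the 25RA, 10RA and 1-590 libraries and 0.908 in their vector library. It was 2.84, 2.59 and 2.17 in the 36EQ, 34DN and 1-1067 libraries and 2.92 in their vector library, and 3.04 to 5.46 in the ChIP libraries. At the background itself a promoter needed a summit of 7, 7 or 8 fragments to be listed with 25RA, 10RA or 1-590 and of 5 with vector, which are folds of 2.80, 2.94, 2.94 and 3.14. At 3 times the background it needed 14, 13 or 15 fragments with 25RA, 10RA or 1-590 and 9 with vector. The summit needed thus grew with the local background, and a promoter that is not listed is not shown to lack the mark. The share of listed peaks at a false discovery rate (q) of 0.05 or less was 86.0% to 96.0% in the 1-590 set, 22.8% to 32.7% in the 1-1067 set and 10.6% to 16.9% in the ChIP libraries.

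The sequences just upstream of 4 members show the range of promoters in the family, with each CpG in capitals. Each line gives the 250 bases that end at the base before the TSS, 5′ to 3′ on the gene's strand, on GRCm39. Kcna3 was listed in all 4 libraries of the 1-590 set, Kcnc4 carried the strongest ChIP peak, Kcng4 was listed in 3 libraries of the 1-590 set and with 36EQ without any CpG in the printed bases, and Kcnb2 was listed in none of the 12 libraries despite a CpG-rich upstream stretch.
Kcna3, chr3:106943235-106943484, plus strand: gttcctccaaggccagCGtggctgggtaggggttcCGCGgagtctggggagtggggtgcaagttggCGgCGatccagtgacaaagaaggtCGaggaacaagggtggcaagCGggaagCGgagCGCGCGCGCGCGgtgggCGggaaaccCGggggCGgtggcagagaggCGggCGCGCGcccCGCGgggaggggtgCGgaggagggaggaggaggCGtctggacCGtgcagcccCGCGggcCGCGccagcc
Kcnc4, chr3:107367782-107368031, minus strand: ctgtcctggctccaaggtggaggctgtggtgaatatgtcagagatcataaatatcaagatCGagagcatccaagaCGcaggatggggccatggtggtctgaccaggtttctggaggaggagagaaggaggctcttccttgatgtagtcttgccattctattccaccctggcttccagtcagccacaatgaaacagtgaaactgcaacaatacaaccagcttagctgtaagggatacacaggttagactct
Kcng4, chr8:120362763-120363012, minus strand: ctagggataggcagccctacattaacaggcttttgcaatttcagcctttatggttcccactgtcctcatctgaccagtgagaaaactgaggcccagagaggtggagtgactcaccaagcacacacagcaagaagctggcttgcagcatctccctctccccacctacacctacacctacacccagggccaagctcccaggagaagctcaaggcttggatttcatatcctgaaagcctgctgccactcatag
Kcnb2, chr1:15356566-15356815, plus strand: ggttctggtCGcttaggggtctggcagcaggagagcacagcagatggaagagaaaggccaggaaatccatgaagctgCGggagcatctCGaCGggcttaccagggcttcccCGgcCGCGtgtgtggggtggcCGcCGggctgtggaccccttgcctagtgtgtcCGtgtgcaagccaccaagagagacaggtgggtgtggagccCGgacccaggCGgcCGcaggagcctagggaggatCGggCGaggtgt
These stretches hold 30, 2, 0 and 15 CpG in the order printed. At least 1 CG, counted on 1 strand because the motif reads the same on both, was present in the same 250 bases of 92.6% of all protein-coding genes, with a median of 8.0 per gene. The count is a description of the letters and not a site. The ASXL1 ChIP peak at Kcnc4, chr3:107367872-107368066, has its summit 195 bases upstream of the TSS, within the printed bases.

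In the 1-590 set, 39 members (41.5%) were listed with 25RA, 43 (45.7%) with 10RA, 42 (44.7%) with 1-590 and 27 (28.7%) with vector. The shares over all protein-coding genes were 47.8%, 41.4%, 55.2% and 40.5% in the same libraries. The members' share was thus below the share of all genes in the 25RA, 1-590 and vector libraries and above it in the 10RA library. Voltage-gated sodium and calcium channel subunits, a list of 40 genes for other ions, were listed at 40.0%, 35.0%, 55.0% and 32.5%. As listed, the sodium and calcium channels had their highest share with 1-590, as all genes did. The potassium channel members, as listed, were near the same share in all 3 ASXL1 libraries. With summit pileups and backgrounds scaled to the depth of the vector library, 32, 41, 35 and 27 members stayed listed, and the shares of all genes were 41.4%, 36.6%, 49.5% and 40.5%. The sodium and calcium channels then stood at 30.0%, 30.0%, 35.0% and 32.5%. After scaling the members were thus no longer near the same share in the 3 ASXL1 libraries, and the count was highest with 10RA.

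**Figure D1:**
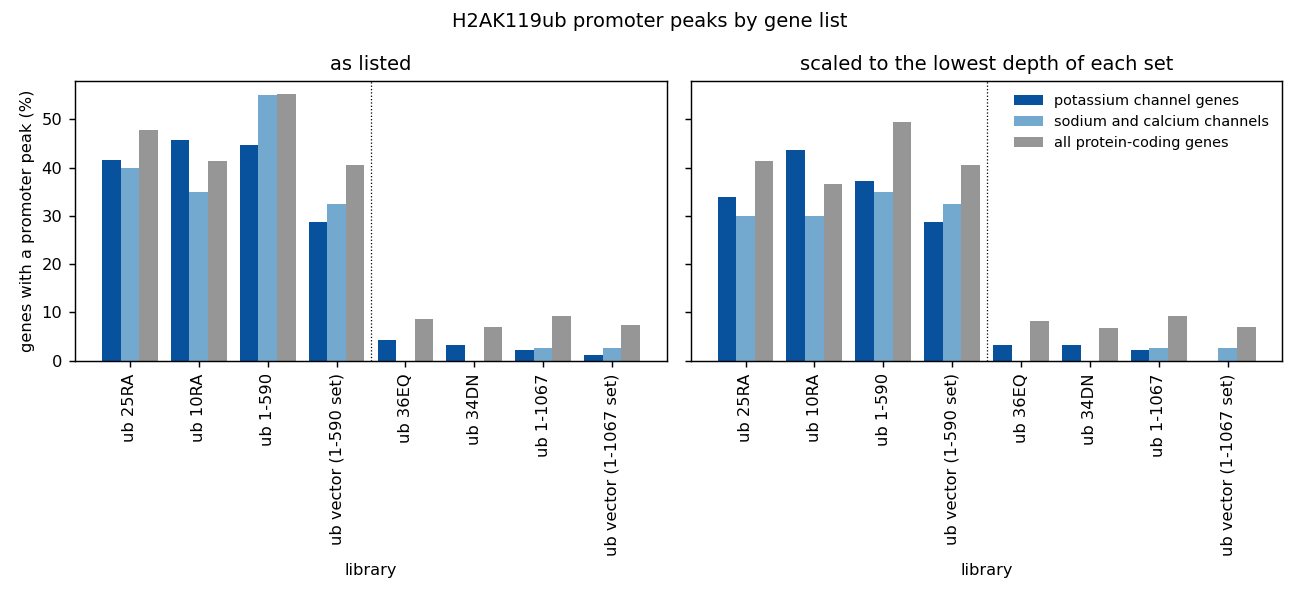
Share of genes with a promoter peak (%, bars from 0) in each H2AK119ub (ub) library, for the 94 potassium channel genes, 40 sodium and calcium channel genes and all 21757 protein-coding genes; left, peaks as listed, right, after scaling each set to its lowest depth. The potassium channel bar stands above the bar of all genes with 10RA and below it in each of the other 7 libraries, in both panels.

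Of the 94 members, 17 (18.1%) were listed in all 4 libraries of the 1-590 set, against 26.7% of all genes, and 38 (40.4%) in none of the 4, against 35.5%. Another 9 (9.57%) were listed with all 3 ASXL1 forms and not with vector, against 5.34% of all genes. No member was listed with vector and with no ASXL1 form, against 1.24% of all genes. Members listed with 10RA or 25RA or both and not with 1-590 numbered 14 (14.9%), against 8.10%. Members listed with 10RA and with neither 1-590 nor vector numbered 8 (8.51%), against 3.36%.

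**Figure D2:**
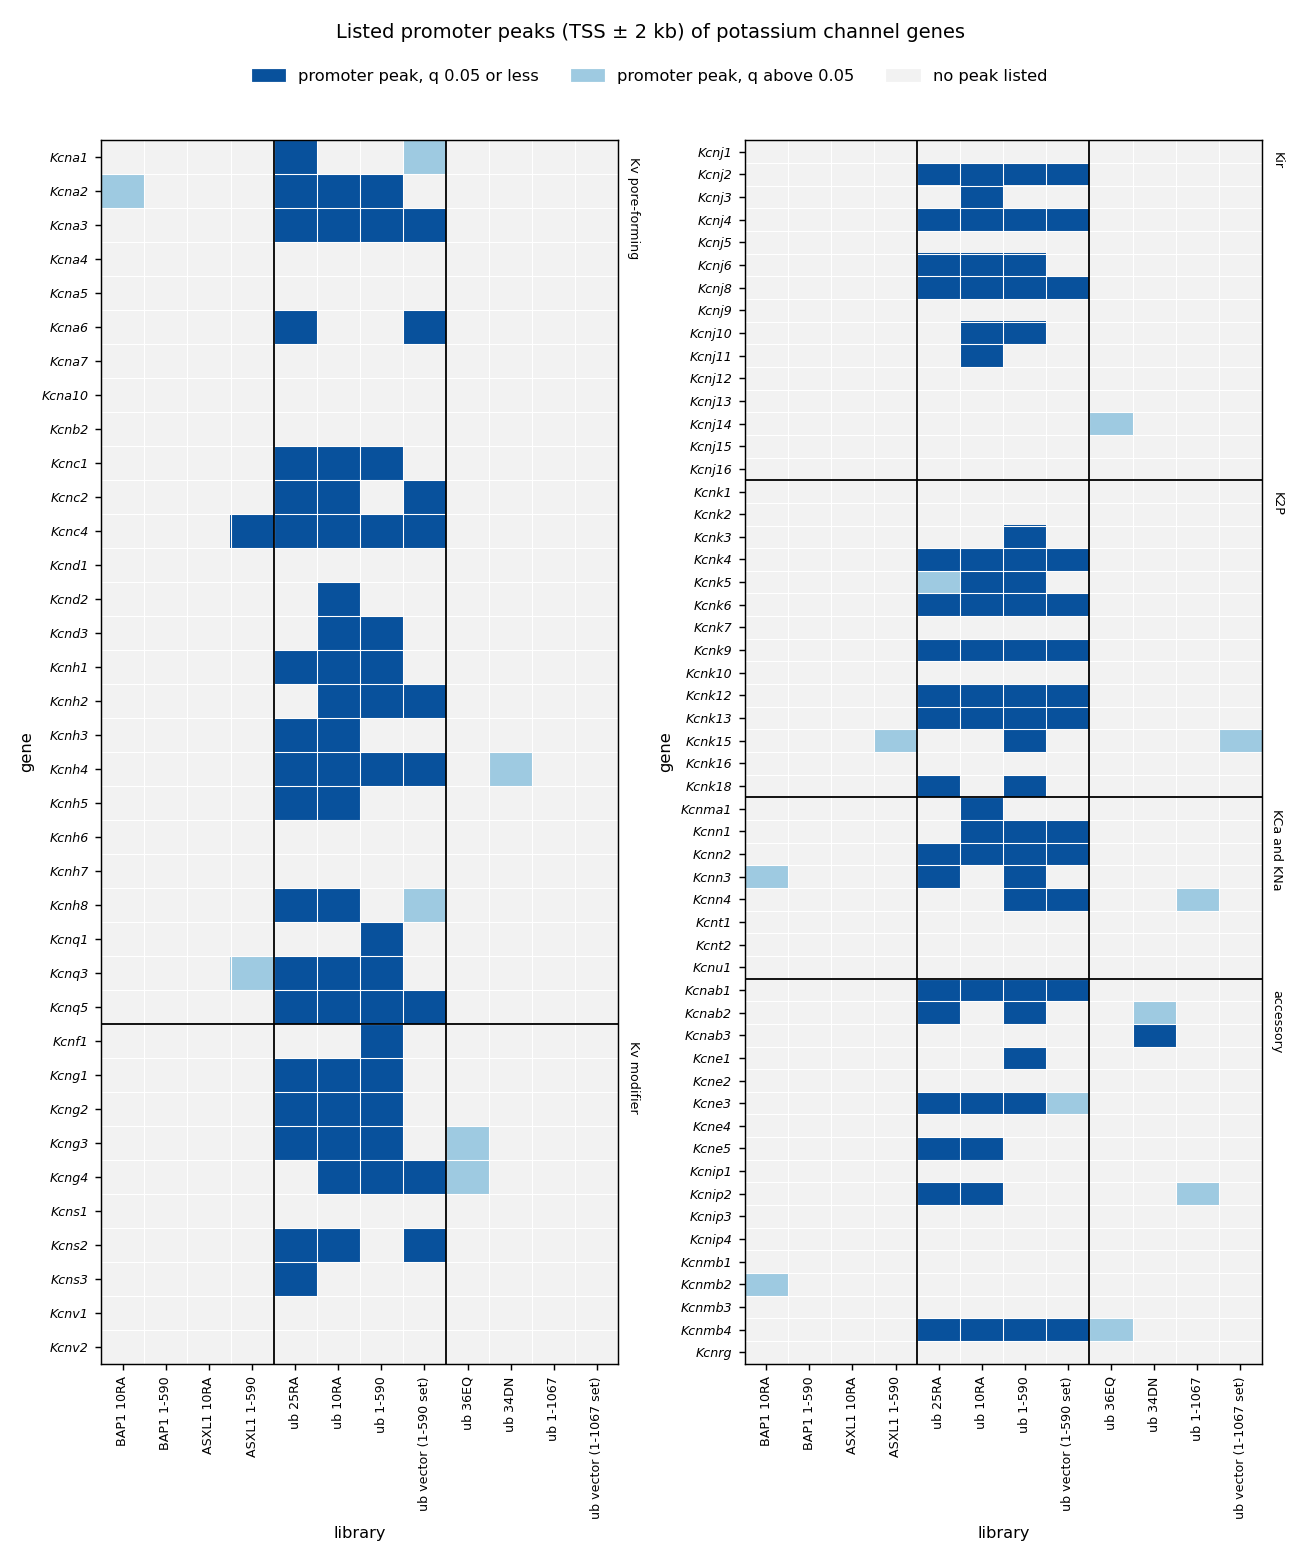
Each row is 1 of 90 of the 94 genes, grouped by channel class, and each column 1 of the 12 libraries (ub, H2AK119ub); dark cells mark a promoter peak with q of 0.05 or less, light cells one with a larger q. Filled cells are concentrated in the 4 libraries of the 1-590 set, where 16 of the rows drawn are filled throughout and 37 are empty.

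The 17 members listed in all 4 libraries came from all classes but the Kv modifiers. The pore-forming Kv genes included Kcna3, Kcnc4 (a fast Kv3 channel of neurons), Kcnh4 (an ELK channel) and Kcnq5 (an M-current subunit). At Kcnh4 the summits lay 1794 to 1850 bases upstream of the TSS, and the TSS of its neighbour Hcrt is 2925 bases away. The Kir genes were Kcnj2 (Kir2.1, which holds the resting potential of muscle), Kcnj4 (Kir2.3) and Kcnj8 (Kir6.1, the pore of vascular ATP-sensitive channels). The K2P genes were Kcnk4 (TRAAK, opened by stretch), Kcnk6, Kcnk9 (TASK-3, closed by acid), Kcnk12 and Kcnk13. Kcnn2 (the small-conductance channel SK2) and the accessory genes Kcnab1, Kcne3 and Kcnmb4 completed the group. At 13 of the 17 (76.5%) at least 1 base lay under peaks of all 4 libraries, against 87.8% of the 5818 genes listed in all 4, while at the others, Kcnab1, Kcnc4 and Kcnj4 among them, the 4 lists met only in the 2 kb window.

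Kcnj2 had the highest fold of the members in 2 of the 4 lists. The fold is the authors' peak caller's own value, summit pileup plus 1 over local background plus 1, and ranks peaks only within a list. At its promoter the summit held 24 fragments over a background of 3.73 with 25RA, 11 over 2.43 with 10RA and 34 over 4.30 with 1-590, against 17 over 1.81 with vector. The folds were 5.29, 3.5, 6.60 and 6.40. All 4 summits lay 132 to 177 bases upstream of the TSS, and the stretch shared by the 4 peaks was chr11:110956697-110956967. Kcnj2 ranked 1763 among the 12012 promoters of the 1-590 list and 806 among the 8807 of the vector list. These ranks are percentiles of 85.3 and 90.8, so the highest member stood high in both lists but not at the top.

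Kcne3, a single-pass subunit that holds KCNQ1 channels open in epithelia, had the highest fold of the members in the 25RA list. Its summit held 33 fragments over 5.29 with 25RA, 17 over 4.55 (18 over 4.76 at a second peak) with 10RA and 21 over 6.06 with 1-590, against 11 over 3.16 with vector. The vector peak had a q of 5.86%, so at q of 0.05 or less Kcne3 was listed in the 3 ASXL1 libraries only. Kcnk12, a silent K2P subunit, was the highest member in the 10RA list, with summits of 28 over 6.03, 29 over 5.81 and 26 over 5.30 fragments in the 25RA, 10RA and 1-590 libraries and 16 over 2.49 with vector. Its strongest summits lay 55 to 308 bases downstream of the TSS in a 5′ UTR exon in all 4 libraries.

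At Kcna3 the lists held 2 peaks in each of the 4 libraries. The stronger had 24 fragments over 5.13 with 25RA, 17 over 4.17 with 10RA and 29 over 6.86 with 1-590, against 17 over 3.47 with vector. A stretch upstream of the TSS, at positions -412 to -189 from it (chr3:106943073-106943296), lay under peaks of all 4 libraries, and a shorter one lay 871 to 898 bases downstream. Kcnk6 (TWIK-2, a K2P channel of macrophages and endosomes) had a single peak per library, with its summit 302 to 371 bases downstream in the first coding stretch. Its summits held 22 fragments over 6.07, 19 over 4.65 and 21 over 6.14 with 25RA, 10RA and 1-590, against 13 over 3.41 with vector. At both genes the peaks of all 4 libraries overlapped.

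Kcnn4, the other channel best known in blood, was listed in fewer libraries than Kcna3. Kcnn4 was listed with 1-590 (32 fragments over 7.66) and with vector (18 over 4.82), 114 bases downstream and 98 bases upstream of the TSS, and not with 25RA or 10RA. It was also listed with 1-1067, at 1451 bases downstream, where the q was 16.1%. A 5 kb promoter left Kcnn4 unlisted with 25RA and 10RA.

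With 1-590 against vector, 20 members (21.3%) were listed with 1-590 only and 5 (5.32%) with vector only, against 17.8% and 3.03% of all genes. The 8 with the highest fold on the 1-590 side were Kcnk5, Kcnh1, Kcnj6, Kcnab2, Kcnn3, Kcnf1, Kcnd3 and Kcnq3, with folds of 4.30 to 3.23. Kcnk5 encodes TASK-2, an alkali-activated K2P channel of kidney, Kcnh1 the EAG1 channel, Kcnj6 a G protein-gated rectifier of neurons and Kcnab2 a Kv beta subunit. At Kcnk5 the summit held 29 fragments over 5.97. The 5 on the vector side were Kcns2, Kcna6, Kcnc2, Kcnh8 and Kcna1, with folds of 4.50 to 3.28, all of them Kv genes. At the depth of the vector library the counts over the members were 35 with 1-590 and 27 with vector, so the difference of 15 fell to 8; Kcnf1, Kcnk18, Kcng1, Kcnk15 and Kcne1 were among those that left the 1-590 side.

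With 10RA against vector, 20 members (21.3%) were listed with 10RA only and 4 (4.26%) with vector only, against 11.1% and 10.2% of all genes. All genes were thus nearly balanced between these libraries and the members were not. The highest on the 10RA side were Kcnj3 (Kir3.1, a G protein-gated rectifier of the heart), Kcnj6, Kcnk5, Kcnip2 (a calcium-binding Kv4 partner of the heart), Kcnh1, Kcnma1 (the BK channel), Kcne5 and Kcnh5, with folds of 4.04 to 3.40. The vector side included Kcna6, Kcna1 and Kcnn4. After scaling to the vector depth the members numbered 41 with 10RA and 27 with vector, a difference of 14 in place of 16.

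With 25RA against vector, 17 members (18.1%) were listed with 25RA only and 5 (5.32%) with vector only, against 14.0% and 6.60% of all genes. The 25RA side was led by Kcnq3 (an M-current subunit, 17 fragments over 3.29), Kcnip2, Kcnh5, Kcnh1, Kcns3, Kcnj6, Kcng1 and Kcnk18 (TRESK), with folds of 4.19 to 3.0. The vector side included Kcnn4, Kcnn1, Kcnh2 (the hERG channel of the heart) and Kcng4. Scaling reduced the members to 32 with 25RA and 27 with vector, and Kcns3, Kcnj6, Kcnk18, Kcnab2, Kcnk5 and Kcnh3 left the 25RA side. These 3 comparisons share the vector library, so their values are given side by side only.

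With 10RA against 1-590, 11 members (11.7%) were listed with 10RA only and 10 (10.6%) with 1-590 only, against 4.53% and 18.4% of all genes; 32 members were listed in both. Over all genes 986 were listed with 10RA only and 3999 with 1-590 only, whereas the members were balanced. The sodium and calcium channels were unbalanced in the direction of all genes, with 1 listed with 10RA only and 9 with 1-590 only, although at the depth of the vector library 12 were listed with 10RA and 14 with 1-590. The 10RA side was led by Kcns2, Kcnj3, Kcnc2, Kcnh8, Kcnip2, Kcnma1, Kcne5 and Kcnh5, with folds of 4.12 to 3.40. On the 1-590 side Kcnab2, Kcnn4, Kcnn3, Kcnf1, Kcnk3 (TASK-1), Kcnk18 and Kcnk15 had folds of 3.83 to 2.49, and Kcne1 and Kcnq1 lower ones. By class, 5 of 30 pore-forming Kv genes were listed with 10RA only and 2 with 1-590 only. For the 15 Kir genes these counts were 2 and 0, and for the 14 K2P genes 0 and 3. Of these genes, the K2P genes Kcnk18 and Kcnk15 left the 1-590 list after scaling to the vector depth. The Kv gene Kcnd2 then left the 10RA list. At the depth of the vector library 41 members were listed with 10RA and 35 with 1-590.

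With 25RA against 1-590, 10 members (10.6%) were listed with 25RA only and 13 (13.8%) with 1-590 only, against 5.53% and 12.9% of all genes. The 25RA side was led by Kcnh8 (an ELK channel, 14 fragments over 1.86, fold 5.25), Kcns2, Kcnc2, Kcnip2, Kcnh5, Kcna1, Kcna6 and Kcns3. On the 1-590 side Kcnn4, Kcnf1, Kcnd3 (Kv4.3), Kcnk3, Kcnj10 (Kir4.1 of glia), Kcnn1 and Kcng4 had folds of 3.81 to 2.59. The members listed with 25RA minus those listed with 1-590 numbered -3, but 7 with a 5 kb promoter and 3 when any annotated transcript start of a gene counted, so the sign depends on the window.

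Kcns2, Kcnc2 and Kcnh8 were listed in every library of the 1-590 set except 1-590. Kcns2, a modifier of Kv2 channels, had 17 fragments over 3.05 with 25RA and 15 over 2.89 with 10RA, against 9 over 1.22 with vector, with all 3 summits within 226 bases of the TSS. Kcnc2 (Kv3.2) had 16 over 3.05, 14 over 2.89 and 7 over 1.26, 720 to 981 bases downstream. The background of the genome was highest in the 1-590 library of the set, at 2.06 fragments per base, and its part in the absence of these 3 genes was not tested. Kcne5, Kcnh3, Kcnh5 and Kcnip2 were listed with 25RA and 10RA alone within the set (4.26% of members, against 1.27% of all genes). The 25RA and 10RA peaks overlapped at Kcne5 and Kcnh3 and did not overlap at Kcnh5 and Kcnip2. Kcnd2 (Kv4.2), Kcnj11 (Kir6.2, the pore of the ATP-sensitive channel of insulin-secreting cells), Kcnj3 and Kcnma1 were listed with 10RA alone. Scaled to the vector depth, Kcnh3 left the 25RA list and Kcnd2 left the 10RA list. The Kcnh3 summits lay 1988 bases downstream with 25RA and 2142 with 10RA, the latter outside the 2 kb window.

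The 9 members listed with all 3 ASXL1 forms and not with vector were Kcna2, Kcnc1, Kcng1, Kcng2, Kcng3, Kcnh1, Kcnj6, Kcnk5 and Kcnq3. Peaks of all 3 forms had a base in common at Kcng1, Kcng3 and Kcnq3. The lists met only in the 2 kb window at Kcna2, Kcnc1, Kcng2, Kcnh1, Kcnj6 and Kcnk5. That overlap was not counted over all genes. Kcng1, Kcng2 and Kcng3 are Kv modifiers, which form no channel alone and join Kv2 subunits. At Kcng1 the summits held 26 fragments over 7.81 with 25RA, 20 over 6.47 with 10RA and 19 over 6.95 with 1-590. At Kcnc1 (Kv3.1) they held 33 over 11.9, 26 over 9.14 and 31 over 11.9, on local backgrounds 5.31 to 6.39 times that of the genome. These Kcnc1 summits were not at 1 place. They lay 717 bases downstream of the TSS with 25RA, 1464 upstream with 10RA and 681 downstream with 1-590. The background of the vector library was 0.908 fragments per base against 1.72 to 2.06 in the ASXL1 libraries. Both values stand beside the listing of these 9 members with all 3 forms and not with vector. Scaled to the vector depth, Kcna2, Kcnc1, Kcng2, Kcng3, Kcnh1 and Kcnq3 stayed listed with all 3 forms, Kcnj6 and Kcnk5 left the 25RA list and Kcng1 left the 1-590 list.

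The CpG content of the promoters varied with class. The median number of CpG within 500 bases of the TSS was 49.5 over the members and 43 over all genes. It was 73.5 in pore-forming Kv genes, 60.5 in K2P genes, 53.5 in Kv modifiers, 44 in the calcium-activated class, 25.0 in Kir genes and 20 in accessory genes. Members listed in all 4 libraries of the 1-590 set had a median of 72.0 CpG and members listed in none 25.0, against 67.0 and 10.0 over all genes. Among promoters with 70 to 174 CpG, 58.1% of the 31 members were listed with 25RA, 67.7% with 10RA, 71.0% with 1-590 and 38.7% with vector, against 76.3%, 67.4%, 89.9% and 69.4% of all genes. Among those with 44 to 69 CpG the 19 members were at 47.4%, 63.2%, 42.1% and 31.6%, against 70.7%, 60.9%, 82.8% and 62.4%. In these bins the members were listed less often than all genes with 25RA, 1-590 and vector, and at close to the same rate with 10RA. The 33 members with 14 to 43 CpG were at 36.4%, 27.3%, 33.3% and 24.2%, against 38.1%, 31.6%, 42.3% and 26.7% of all genes. Of the 11 members with 0 to 13 CpG, 0 were listed with 25RA and 1 each with 10RA, 1-590 and vector. The shares of all genes in that bin were 7.28%, 6.44%, 7.07% and 4.38% in the same order.

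**Figure D3:**
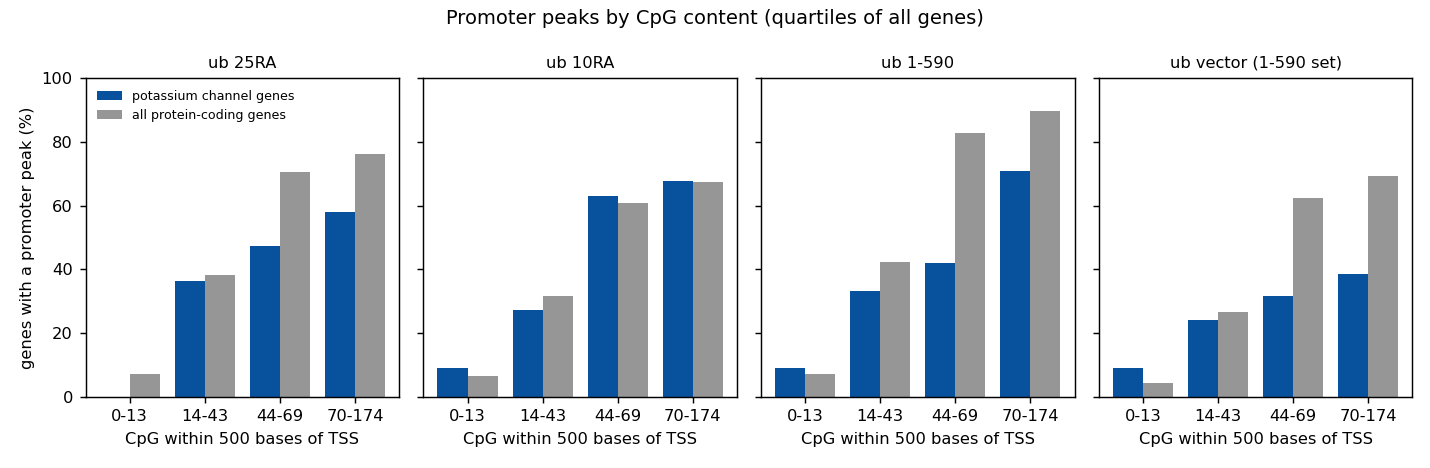
Share of genes with an H2AK119ub promoter peak (%, from 0 to 100) by CpG count within 500 bases of the TSS (bins are quartiles of all genes), for the potassium channel genes (11, 33, 19 and 31 members) and all protein-coding genes, in the 4 libraries of the 1-590 set. In the 2 bins richest in CpG the members stand below all genes with 25RA, 1-590 and vector, and near them with 10RA.

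Exceptions ran both ways. Kcng4, a Kv modifier with 13 CpG, was listed with 10RA, 1-590 and vector through intron peaks with summits 1970, 1744 and 2009 bases downstream of its TSS, and with 1-590 through a second, stronger peak 202 bases downstream in the 5′ UTR exon. Kcnj12 (Kir2.2) with 118 CpG, Kcnb2 (Kv2.2) with 80 and Kcnk2 (TREK-1) with 77 were listed in none of the 12 libraries. In all, 35 members (37.2%) were listed in no library, against 33.1% of all genes. Among the others were Kcna10, Kcna4, Kcna5, Kcna7, Kcnd1, Kcne2, Kcne4, Kcnh6, Kcnh7, Kcnip1, Kcnip3, Kcnip4, Kcnj1, Kcnj13, Kcnj15, Kcnj16, Kcnj5, Kcnj9, Kcnk1, Kcnk10, Kcnk16, Kcnk7, Kcnmb1, Kcnmb3, Kcnrg, Kcns1, Kcnt1, Kcnt2, Kcnu1, Kcnv1 and Kcnv2. By class, 10 of 17 accessory and 8 of 15 Kir genes were listed in none of the 4 libraries of the 1-590 set, and 9 of 30 pore-forming Kv genes.

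The members' promoter peaks stood on a higher local background than those of all genes. The local background under a member's strongest promoter peak, as a multiple of the library's own background, had a median of 3.09 with 25RA, 3.23 with 10RA, 3.54 with 1-590 and 3.82 with vector, against 2.22, 2.16, 2.46 and 2.73 over all listed promoters. The members' median fold was 3.25, 3.31, 3.06 and 3.28, against 3.75, 3.68, 4.16 and 4.17. Kcnn1 (SK1) with 1-590 was the extreme, with 62 fragments over a local background of 20.9. At the strongest Kcnj4 peak the backgrounds were 13.4, 14.5 and 18.9 with 25RA, 10RA and 1-590 and 7.58 with vector, and the summits 36, 34, 46 and 20 fragments. Sodium and calcium channels had medians of 3.58, 3.32, 4.0 and 4.18 times the genome background, also above those of all genes.

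**Figure D4:**
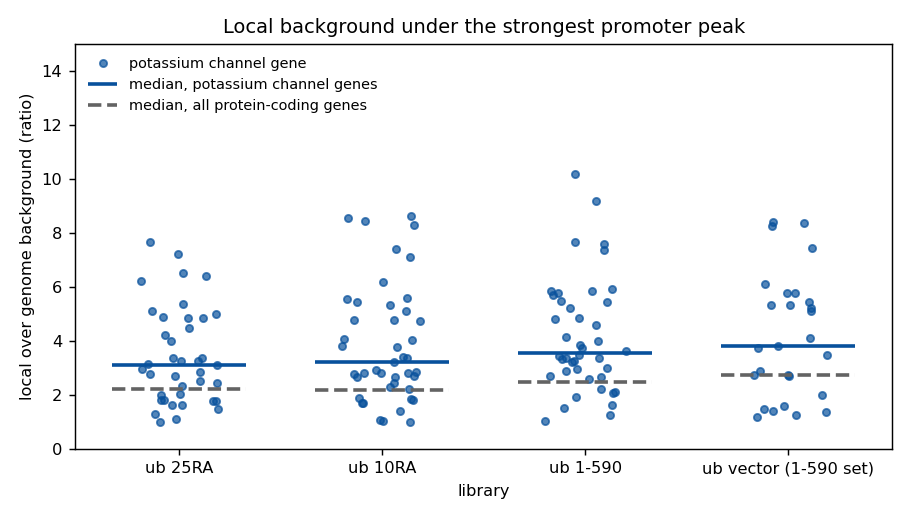
Local background under the strongest promoter peak, as a ratio to the library's genome background (axis from 0), for each listed potassium channel gene (39, 43, 42 and 27 points), with the median of the members (solid) and of all listed protein-coding promoters (dashed). The members' median lies above that of all genes in each of the 4 libraries, 3.09 to 3.82 against 2.16 to 2.73.

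Promoter peaks of the members were spread over the window. Of 197 such peaks in the 1-590 set, 129 had their summit downstream of the TSS and 68 upstream, and 84 lay within 500 bases. By the canonical transcript, 45 summits fell in 5′ UTR exons, 38 in coding exons and 46 in introns. The strongest peak lay within 500 bases of the TSS at 53.8%, 41.9% and 54.8% of listed members with 25RA, 10RA and 1-590 and at 48.1% with vector, against 70.5%, 69.0%, 76.1% and 75.4% of all listed genes. More than 1 peak was found at 30.8%, 34.9% and 31.0% of listed members in the ASXL1 libraries and at 7.41% with vector, against 14.2%, 12.2%, 15.4% and 8.88% of all genes. Kcnq5 had 4 peaks with 25RA, 2 with 10RA, 3 with 1-590 and 1 with vector.

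**Figure D5:**
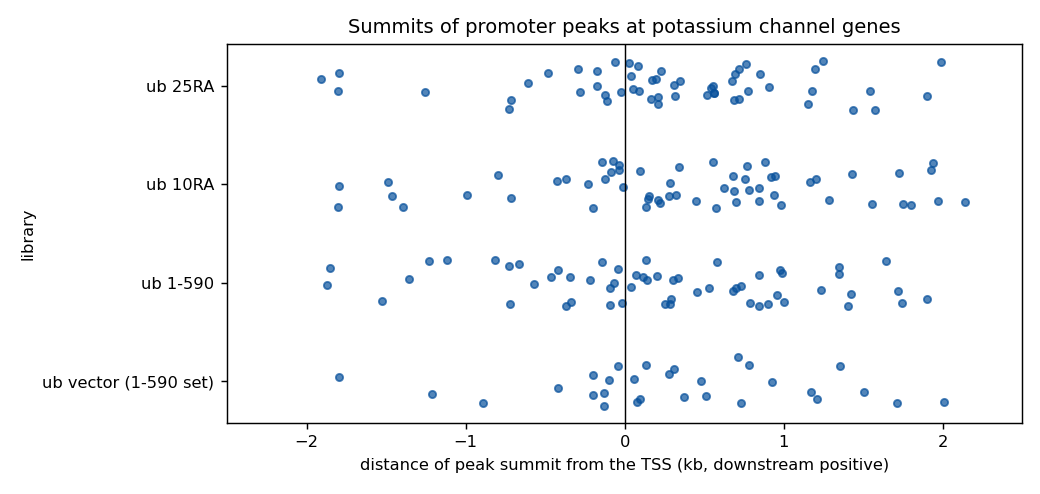
Distance of the peak summit from the TSS (kb, downstream positive; vertical scatter only separates points) for the promoter peaks of potassium channel genes in the 4 libraries of the 1-590 set (53, 58, 57 and 29 peaks). Summits cover the whole window and 129 of 197 lie downstream.

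The edge of the window mattered for some members. With 25RA, 15 members (16.0%) had a peak 2 to 5 kb from the TSS and none nearer, against 6.33% of all genes; 10 of them lay downstream. With 10RA, 1-590 and vector there were 5 each (5.32%), against 6.30%, 4.64% and 4.72%. Kcnj9 (Kir3.3, a G protein-gated rectifier of the brain) had such a peak in all 4 libraries, with summits 3100, 3175, 3233 and 3131 bases downstream and folds of 3.38, 3.58, 4.06 and 3.06 with 25RA, 10RA, 1-590 and vector. Kcnab3, a Kv beta subunit, had one with 25RA, 1-590 and vector, with summits at -2398, -2347 and -2342 bases, close to the TSS of its neighbour Trappc1, which lies 2305 bases away.

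The genes are long, with a median length of 32.6 kb against 19.2 kb over all genes. With 25RA, 28 members (29.8%) had a peak in the gene but none at the promoter, against 14.8% of all genes. The members' shares with 10RA, 1-590 and vector were 14.9%, 12.8% and 18.1%, against 15.5%, 10.3% and 12.4% of all genes. Per Mb of gene and flank, however, members had 13.2, 9.81, 10.8 and 6.06 peaks with 25RA, 10RA, 1-590 and vector, against 22.8, 18.8, 23.2 and 15.1 for all genes. Kcnip1 had 9, 4, 5 and 2 peaks in the body with 25RA, 10RA, 1-590 and vector and no promoter peak; Kcnmb1 lies within its bounds on the other strand, so a peak there counts for both. At Kcnq1, the pore of the cardiac slow delayed rectifier, the promoter was listed with 1-590 only, 958 bases downstream (31 fragments over 12.1). Within the gene, a 1-590 peak at chr7:142849929-142850421 with fold 4.39 covered the start, at 142850245, of the antisense noncoding transcript Kcnq1ot1, which silences imprinted genes of that locus. A 34DN peak at chr7:142850401-142850638 (q 10.3%) overlapped the end of that 1-590 peak. The other lists had no peak within 2 kb of the Kcnq1ot1 start.

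In the 1-1067 set, 4 members were listed with 36EQ, 3 with 34DN, 2 with 1-1067 and 1 with vector, against 8.52%, 6.95%, 9.21% and 7.44% of all genes. No member was listed in more than 1 of the 4 libraries, against 7.25% of all genes, and 10 (10.6%) were listed in at least 1, against 20.9%. The 36EQ genes were Kcng4, Kcnmb4, Kcnj14 and Kcng3, and the 34DN genes were Kcnab2, Kcnh4 and Kcnab3. The 1-1067 genes were Kcnip2 and Kcnn4, and the vector gene was Kcnk15. With q of 0.05 or less only Kcnab3 with 34DN remained (20 fragments over 6.10, q 3.17%), and that peak, chr11:69216713-69216980, also lies within 2 kb of the starts of Cntrob and Trappc1. The Kcnh4 peak with 34DN, 1741 bases upstream at chr11:100652447-100652726, overlaps the place where all 4 libraries of the 1-590 set had a peak, and it is also within the promoter of Hcrt.

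Because no member was shared, each comparison in that set rests on the genes just named. With 36EQ against vector, 4 members (4.26%) were listed with 36EQ only and 1 (1.06%) with vector only, against 6.02% and 4.94% of all genes. With 34DN against vector the counts were 3 (3.19%) and 1 (1.06%), against 4.80% and 5.29%. With 1-1067 against vector they were 2 (2.13%) and 1 (1.06%), against 6.51% and 4.74%. With 36EQ against 1-1067 they were 4 (4.26%) and 2 (2.13%), against 5.27% and 5.96%, and with 34DN against 1-1067 they were 3 (3.19%) and 2 (2.13%), against 4.27% and 6.52%. Each of these shares of the members was below that of all genes, and the comparisons share the vector or the 1-1067 library.

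Few members had a listed ChIP peak at the promoter, 6 (6.38%) in at least 1 ChIP library, against 2.23% of all genes. The members' share was thus above that of all genes, and a promoter that is not listed is not shown to lack the protein. BAP1 ChIP listed 3 members with 10RA (0.552% of all genes) and 0 with 1-590 (0.363%); the exclusive counts of 3 and 0 compare with 0.492% and 0.303% of all genes. ASXL1 ChIP listed 0 with 10RA (0.455%) and 3 with 1-590 (1.07%); the exclusive counts of 0 and 3 compare with 0.386% and 0.997%. The BAP1 peaks stood at Kcnmb2 (a BK beta subunit), Kcnn3 (SK3) and Kcna2 (Kv1.2), with folds of 2.41, 2.39 and 2.30 and q of 24.6%, 31.8% and 39.2%. Their summits lay 1565 bases downstream, 1682 upstream and 2104 upstream of the TSS in that order. The Kcna2 summit was thus outside the 2 kb window, and its peak covered 77 bases of the window. The ASXL1 peaks stood at Kcnc4 (19 fragments over 4.99, fold 3.34, q 0.878%), Kcnk15 (14 over 4.99, q 29.0%) and Kcnq3 (14 over 5.11, q 29.0%). Only the Kcnc4 peak had a q of 0.05 or less. Its H2AK119ub peaks were downstream of the TSS, 171 bases away with 25RA, 95 and 1165 with 10RA and 1720 with 1-590, against 1714 with vector, and none overlapped the ChIP peak's summit.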

How the data were processed

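Peak lists of 12 libraries (4 ChIP-seq, 8 CUT&RUN) were used, 1 per group. The submitters' processing notes name mm39 and MACS3 3.0.3, with fastp 0.24.0, Bowtie2 2.5.4, Picard and SAMtools. Spike-in reads from E. coli were used to normalize CUT&RUN data, per the labels; use of a control library is not given in the sources used here. The deposited lists give for each peak a score, a fold (a ratio of summit pileup plus 1 to local background plus 1) and the -log10 p and -log10 q of the authors' peak caller. All listed peaks have p of 0.001 or less, with no q threshold.

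Whole fragment numbers and local backgrounds were computed from fold and p, and 100% of peaks were reproduced to within 0.002 in -log10 p. The library background is the lowest local background in a list. Coordinates are GRCm39, counted from 1, with GENCODE vM39 and its canonical TSS; sequences were read from that genome. Scripts used python 3.11.15, numpy 2.4.6, scipy 1.17.1, pandas 2.3.3 and matplotlib 3.10.9 and were tested on simulated data.

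Named genes were, per comparison and direction, the 8 members with the largest promoter fold among those listed in 1 library only, members with a ChIP promoter peak, members listed in all 4 libraries of the 1-590 set, those listed in none of the 12 together, and Kcna3, Kcnn4, Kcnk5, Kcnk6, Kcnj2, Kcnq1, Kcnh2 and Kcnab2. Others were named after their values were seen. The members and lists were chosen with earlier results of these data known. The 12 comparisons were made within batches, without tests, under 7 alternatives. Some members and sequences are counted but not reported by name here.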

Additional observations from a re-analysis of the deposited data

How the results depend on the processing

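No paired analysis was possible because each group has 1 library, and leaving out a replicate was not possible for the same reason. The value followed is the number of members listed in the first library minus the number in the second. As listed it was 12 for 25RA against vector, 16 for 10RA against vector, 15 for 1-590 against vector, -3 for 25RA against 1-590 and 1 for 10RA against 1-590. In the 1-1067 set it was 3 for 36EQ against vector, 2 for 34DN against vector, 1 for 1-1067 against vector, 2 for 36EQ against 1-1067 and 1 for 34DN against 1-1067; for 10RA against 1-590 in ChIP it was 3 (BAP1) and -3 (ASXL1). The 10RA against vector value stayed within 1.5 times under all 7 alternatives.

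With q of 0.05 or less it became 0 for 36EQ against vector, 1 for 34DN against vector, 0 for 1-1067 against vector, 0 for 36EQ against 1-1067, 0 for BAP1 ChIP and -1 for ASXL1 ChIP. A 1 kb promoter gave 0 for 10RA against 1-590, 0 for 36EQ against vector, -1 (sign turned) for 36EQ against 1-1067 and 0 for BAP1 ChIP. A 5 kb promoter gave 22 for 25RA against vector, 7 (sign turned) for 25RA against 1-590, 1 for 34DN against vector, 0 for 34DN against 1-1067, 1 for 36EQ against 1-1067 and 5 for BAP1 ChIP. Counting summits inside the promoter gave 0 for 10RA against 1-590. Lists of equal length gave 2 for 25RA against vector, 8 for 1-590 against vector, -6 for 25RA against 1-590, 6 for 10RA against 1-590, 2 for 1-1067 against vector, 1 for 36EQ against 1-1067, 1 for BAP1 ChIP and -1 for ASXL1 ChIP. Scaling to the lowest depth gave 5 for 25RA against vector, 8 for 1-590 against vector, 6 for 10RA against 1-590, 2 for 1-1067 against vector, 1 for 36EQ against 1-1067, 1 for BAP1 ChIP and -1 for ASXL1 ChIP. Any annotated transcript start gave 3 (sign turned) for 25RA against 1-590, 2 for 10RA against 1-590, 0 for 34DN against vector, 2 for 1-1067 against vector, -2 (sign turned) for 34DN against 1-1067, 1 for 36EQ against 1-1067 and 5 for BAP1 ChIP. Fewer peaks entered by construction with the q, equal-length and depth settings; otherwise the cause was not tested. Depth limits what is listed, above all with vector in the 1-590 set.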

Other observations

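A list of 20 partner genes (ATP-sensitive channel and Kv4 partners, LRRC subunits, sodium pump subunits and potassium cotransporters) had 11 genes listed with 25RA, 12 with 10RA and 13 with 1-590, and 8 with vector. Of these genes, 7 (35.0%) were listed in all 4 libraries of the 1-590 set, against 26.7% of all genes. At the depth of the vector library 9, 11 and 10 of the 20 were listed with 25RA, 10RA and 1-590 and 8 with vector.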
